A study of Mus musculus with 3 samples.

Results

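The 10 genes described here encode proteins that granulocytes store in their granules or cytosol: Mpo, Elane, Prtn3 and Ctsg of the primary granules of neutrophils, Ltf, Ngp and Camp of the secondary granules, S100a8 of the cytosol, and Epx and Prg2 of eosinophil granules. They were taken by name, with every probe whose RefSeq accession maps to the mouse symbol, and all 10 had a probe among the 20546 named genes of the array. Expression was measured on 3 single-colour Agilent arrays of RNA from female mice, 1 array per group. The SiO2-3TF-3C spleen was exposed to SiO2 (silica) and to a further treatment that the labels name 3TF-3C without spelling it out, the normal liver served the study as a positive control, and the SiO2 spleen received SiO2 alone. Both spleen groups therefore carry the SiO2 treatment, and no untreated spleen was analysed here. Collection was on day 82 for both, and the design text says that 5 cell or spleen samples were pooled per group. The sources used here do not give strain, age, what day 82 is counted from, or whether livers were pooled too. With 1 array per group no test between groups was possible, so differences are described by their size, with a 2-fold difference (1 on the log2 scale) as the mark. A value after ± is the technical error that the scanner software gives for the signal of the spot, combined over both arrays, and leaves out the spread between animals. For bright probes it was nearly the same for every gene, as for Mpo and Camp at 0.144 per array. It was not measured from repeated arrays.

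Neutrophils pack their granules in a fixed order while they mature. Primary (azurophil) granules, with myeloperoxidase and the serine proteases, are filled at the promyelocyte stage, secondary (specific) granules, with lactoferrin and cathelicidin, at the later myelocyte stage, and the messages of both groups are largely silenced in the mature cell, whereas S100a8 stays abundant there. Eosinophils fill their own granules with a peroxidase and cationic proteins. The mouse spleen keeps a capacity to form blood cells in the adult, so both maturing and mature granulocytes can be found in it. In RNA from whole tissue, fewer cells of a type and less RNA per cell cannot be told apart.

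The 3 arrays were of similar quality. Between 77.2% and 81.3% of spots passed the scanner software's test for being well above background, no spot was saturated, and the array 75th percentile, the 0 of the scaled log2 values used below, lay at an intensity of 515 in the SiO2-3TF-3C spleen, 390 in normal liver and 569 in the SiO2 spleen. Every member probe was well above background on each array. The normal liver carried its markers, and so did 1 of the spleens. The 6 hepatocyte genes, such as albumin (Alb), summed to 184.0 times the 75th percentile in the SiO2-3TF-3C spleen, 427 times in normal liver and 0.227 times in the SiO2 spleen, where Ttr and Apoa1 were not well above background. All 6 were at least 2-fold apart between the spleens, with a median log2 difference of 9.79 in which Ttr and Apoa1 stand at a bound, and their part in the results below was not tested. The 6 lymphocyte genes, such as Cd3e, were well above background on all 3 arrays and summed to 50.7, 28.8 and 70.9 times the 75th percentile in the SiO2-3TF-3C spleen, normal liver and the SiO2 spleen.

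All 10 granule genes had their higher spleen value after SiO2-3TF-3C, although S100a8 was level and turned to -0.07 with the normexp background correction of limma. Epx, Prg2, Ltf and Ctsg were at least 2-fold higher there, 0 were 2-fold lower and the other 6 lay between these marks. The median log2 difference of the 10 was 0.85, and that of all 17640 genes measured was -0.15. Over all genes 5.24% were at least 2-fold higher, 1.39% at least 2-fold lower, and 34.4% higher by any amount. Of all genes past 2-fold, 79.0% were on the higher side, against 93.7% under normexp and 67.9% when dim genes were kept, and the members past 2-fold numbered 4 under each of these settings. Elane, at 0.91, passed 2-fold with quantile normalization (1.04) and with scaling to housekeeping genes (1.07), which made the count 5, and in the authors' deposited table (1.04).

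**Figure D1:**
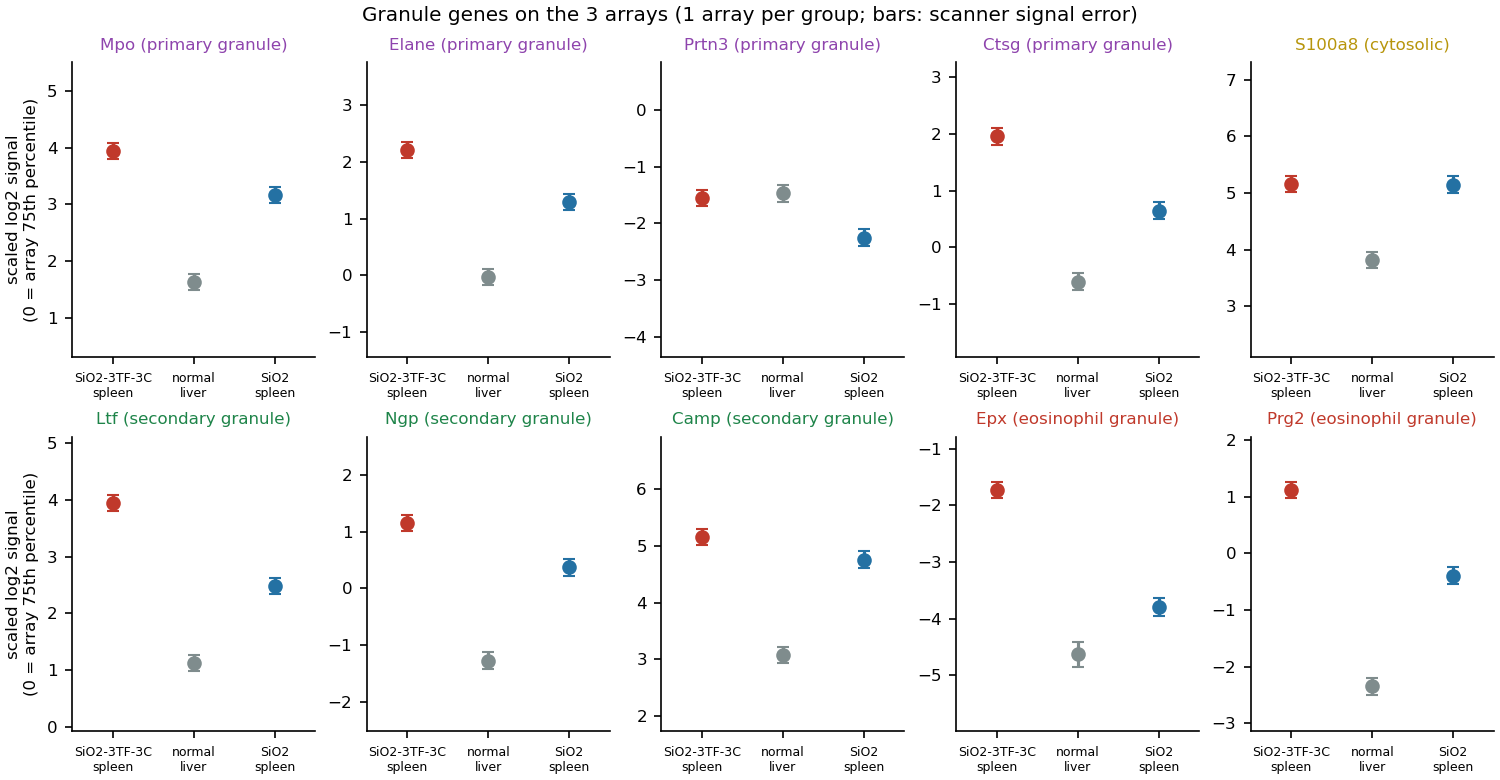
Scaled log2 signal (vertical axis, 0 is the array's 75th percentile) of each granule gene's brightest probe on the SiO2-3TF-3C spleen, normal liver and SiO2 spleen arrays, 1 point per array, with bars for the scanner software's signal error. All panels span the same number of log2 units, and the SiO2-3TF-3C spleen is the highest point in 9 of 10 panels, by 0.01 in that of S100a8, the exception being Prtn3.

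The primary granule genes were moderately higher in the SiO2-3TF-3C spleen. Mpo, the myeloperoxidase that makes hypochlorous acid from chloride, had scaled log2 values of 3.94 in the SiO2-3TF-3C spleen, 1.62 in normal liver and 3.16 in the SiO2 spleen. Liver was lowest and the SiO2-3TF-3C spleen highest, and the spleens differed by 0.77 ± 0.20. Elane, neutrophil elastase, had values of 2.21 in the SiO2-3TF-3C spleen, -0.03 in normal liver and 1.30 in the SiO2 spleen, in the same order, with a difference of 0.91 ± 0.20 between the spleens. Ctsg, cathepsin G, had values of 1.95 in the SiO2-3TF-3C spleen, -0.61 in normal liver and 0.64 in the SiO2 spleen. Its 1.31 ± 0.20 between the spleens (2.48-fold) was the highest of the class and exceeded that of Mpo by 0.54 ± 0.29. Prtn3, proteinase 3, had values of -1.55 in the SiO2-3TF-3C spleen, -1.47 in normal liver and -2.25 in the SiO2 spleen. Between the spleens it differed by 0.70 ± 0.21, close to Mpo and Elane, but its liver value was as high as that of the SiO2-3TF-3C spleen. The Prtn3 probe was dimmer, at an intensity of 176 in the SiO2-3TF-3C spleen, against 7876 for Mpo and 2380 for Elane. With normexp background correction its difference between the spleens fell to 0.44, against 0.67 for Mpo and 0.83 for Elane. The class median between the spleens was 0.84.

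Normal liver was at least 2-fold below the SiO2 spleen for 3 of the 4 primary granule genes, and for 17.0% of all genes. The 3 were Mpo at -1.54 ± 0.20, Elane at -1.33 ± 0.20 and Ctsg at -1.25 ± 0.20. Prtn3 went the other way, at 0.78 ± 0.21, and kept that sign under all 10 alternatives, from 0.54 to 0.79. Elane and Prtn3 are adjacent on chromosome 10 with 0 protein-coding genes between them, yet their differences between liver and the SiO2 spleen lay 2.11 ± 0.29 apart, while those between the spleens lay 0.21 ± 0.29 apart. The SiO2-3TF-3C spleen exceeded liver by 2.31 ± 0.20 for Mpo, 2.24 ± 0.20 for Elane and 2.56 ± 0.20 for Ctsg. Prtn3 differed there by -0.08 ± 0.21, less than its error, and turned to 0.20 with scaling to housekeeping genes.

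The sequences before the start sites of 5 members are shown because these genes differ in how they moved. As reported, Mpo, Elane and Prtn3 moved alike between the spleens, Prtn3 apart from both in liver, and Ltf and Epx more than these. Each run is the 250 bases upstream of the start site, 5′ to 3′ on the gene's strand, from RefSeq on GRCm38.p6. That build is not the mm9 of the arrays and is used for sequence and gene order alone. Capitals mark matches, on either strand, to 4 motifs of factors known in blood cell formation. The letters searched were GAGGAAGT for PU.1 and TTGCNNAA for C/EBP. For the GATA factors they were AGATAA, and for MYB they were CAACTG. No matches overlapped in the member promoters.
Mpo, chr11:87793534-87793783 (+ strand): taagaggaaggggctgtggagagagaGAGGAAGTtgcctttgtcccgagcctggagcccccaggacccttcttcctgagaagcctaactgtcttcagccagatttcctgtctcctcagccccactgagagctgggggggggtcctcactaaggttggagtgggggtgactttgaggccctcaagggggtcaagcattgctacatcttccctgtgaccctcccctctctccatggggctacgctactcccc
Elane, chr10:79886062-79886311 (+ strand): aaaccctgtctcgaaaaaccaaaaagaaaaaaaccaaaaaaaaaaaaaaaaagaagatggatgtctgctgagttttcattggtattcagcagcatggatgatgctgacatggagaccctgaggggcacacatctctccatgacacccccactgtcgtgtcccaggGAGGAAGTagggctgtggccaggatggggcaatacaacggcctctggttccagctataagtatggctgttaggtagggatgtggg
Prtn3, chr10:79879417-79879666 (+ strand): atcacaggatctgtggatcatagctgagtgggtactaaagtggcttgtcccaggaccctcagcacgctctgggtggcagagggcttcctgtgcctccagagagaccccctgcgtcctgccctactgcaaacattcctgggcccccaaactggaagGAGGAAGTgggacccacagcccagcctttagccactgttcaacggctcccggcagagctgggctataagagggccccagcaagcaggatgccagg
Ltf, chr9:111019042-111019291 (+ strand): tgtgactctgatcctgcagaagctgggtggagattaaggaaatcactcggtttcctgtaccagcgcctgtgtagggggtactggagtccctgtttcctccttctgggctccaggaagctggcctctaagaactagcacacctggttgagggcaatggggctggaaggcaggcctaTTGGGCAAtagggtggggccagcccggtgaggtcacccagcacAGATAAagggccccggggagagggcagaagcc
Epx, chr11:87875537-87875786 (- strand): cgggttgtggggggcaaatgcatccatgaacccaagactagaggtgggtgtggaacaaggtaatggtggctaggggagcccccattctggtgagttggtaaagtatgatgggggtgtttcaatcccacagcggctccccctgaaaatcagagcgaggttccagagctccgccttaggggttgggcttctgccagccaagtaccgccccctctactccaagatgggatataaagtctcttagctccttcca

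Of the 9 members with an entry in the promoter table, Mpo, Elane, Prtn3 and S100a8 hold the PU.1 letters, which occur in 2.44% of the 32851 promoter windows of the same length. Counted from the start site, they begin at base -85 in Elane, -95 in Prtn3 and -224 in Mpo. The C/EBP letters were in Ltf and Ngp (9.56% of all windows), the GATA letters in Ltf alone (9.99%) and the MYB letters in Ctsg alone, at 2 places (11.1%). Camp and Epx hold none of the 4 motifs in this window. The PU.1 letters were shared by Elane at 0.91 and S100a8 at 0.01 between the spleens. A match describes letters and is no measured binding site.

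The secondary granule genes were spread more widely. Ltf, lactoferrin, which binds iron, had scaled log2 values of 3.95 in the SiO2-3TF-3C spleen, 1.13 in normal liver and 2.48 in the SiO2 spleen. It was the highest of the 8 neutrophil genes between the spleens, at 1.47 ± 0.20 (2.77-fold). Ngp, the neutrophilic granule protein, had values of 1.15 in the SiO2-3TF-3C spleen, -1.28 in normal liver and 0.37 in the SiO2 spleen, a difference of 0.78 ± 0.20 between the spleens. Camp, the precursor of the antimicrobial peptide cathelicidin and the only member with more than 1 probe, had values of 5.16 in the SiO2-3TF-3C spleen, 3.07 in normal liver and 4.76 in the SiO2 spleen by its brighter probe. By its dimmer probe the values were 4.35, 2.19 and 3.99. The probes gave 0.40 ± 0.20 and 0.35 ± 0.20 between the spleens, so they differed by less than the error of either, and Camp exceeded its error less clearly than the others. On these arrays the difference of Ltf exceeded that of Camp by 1.06 ± 0.29 and that of Ngp by 0.69 ± 0.29. Whether the 3 genes moved by a common amount could not be tested with 1 array per group.

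In normal liver all 3 secondary granule genes were at least 2-fold below the SiO2 spleen, where 17.0% of all genes were. Ltf was at -1.36 ± 0.20, Ngp at -1.65 ± 0.20 and Camp at -1.69 ± 0.20. The 3 values lay within 0.33 ± 0.29 of each other, closer together than the differences between the spleens. The SiO2-3TF-3C spleen exceeded liver by 2.83 ± 0.20 for Ltf, 2.43 ± 0.20 for Ngp and 2.09 ± 0.20 for Camp. The 3 genes lie on chromosome 9, with 8 protein-coding genes between Camp and Ngp and 20 between Ngp and Ltf.

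S100a8, a subunit of the calcium-binding protein calprotectin and a cytosolic rather than granule protein, was level between the spleens. Its scaled log2 values were 5.16 in the SiO2-3TF-3C spleen, 3.81 in normal liver and 5.15 in the SiO2 spleen, a difference of 0.01 ± 0.20 between the spleens that ranged from -0.07 with normexp background correction to 0.26 in the authors' deposited table. Liver was nevertheless below the SiO2 spleen, at -1.33 ± 0.20, and lower than the SiO2-3TF-3C spleen, which exceeded it by 1.34 ± 0.20. S100a9, the adjacent gene and the other subunit, was at -0.11 ± 0.20 between the spleens and at -0.34 ± 0.20 between liver and the SiO2 spleen.

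As reported, the eosinophil granule genes had the highest differences between the spleens, although that of Ltf minus that of Prg2 was only -0.05 ± 0.29. With normexp background correction Ltf, at 1.49, exceeded both Epx and Prg2. With quantile normalization Ltf reached 1.67 and exceeded Prg2 at 1.56. Epx, the eosinophil peroxidase, had a processed intensity of 155 in the SiO2-3TF-3C spleen, 15.8 in normal liver and 41.1 in the SiO2 spleen, or -1.73, -4.63 and -3.79 as scaled log2 values in the same order. Between the spleens it was 4.17-fold higher with SiO2-3TF-3C (2.06 ± 0.21), above S100a8 by 2.05 ± 0.30 and above Mpo by 1.29 ± 0.30. Its signal is dim, and with normexp background correction the difference was 1.22, still past 2-fold. Prg2, the major basic protein, had an intensity of 1118 in the SiO2-3TF-3C spleen, 76.6 in normal liver and 432 in the SiO2 spleen, or 1.12, -2.35 and -0.40 as scaled log2 values. Between the spleens it was 2.86-fold higher with SiO2-3TF-3C (1.51 ± 0.20). This difference was 1.56 in the authors' deposited table and 1.26 with normexp background correction. The difference of Epx exceeded that of Prg2 by 0.55 ± 0.30 as reported, but with normexp it was the lower, at 1.22 against 1.26. Mpo and Epx, related peroxidases, lie on chromosome 11 with 2 protein-coding genes between them, Lpo and Mks1, which were at -0.55 and -0.36 between the spleens.

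Normal liver was lower than the SiO2 spleen by 1.95 on the log2 scale for Prg2 (-1.95 ± 0.21), the lowest of the 10 members. Epx was at -0.84 ± 0.27 there and turned to 0.04 with normexp background correction, so its direction is not settled at this signal. The SiO2-3TF-3C spleen was 11.1-fold above liver for Prg2 (3.47 ± 0.21) and 7.46-fold for Epx (2.90 ± 0.26), which became 2.67 and 1.19 on the log2 scale with normexp background correction.

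**Figure D2:**
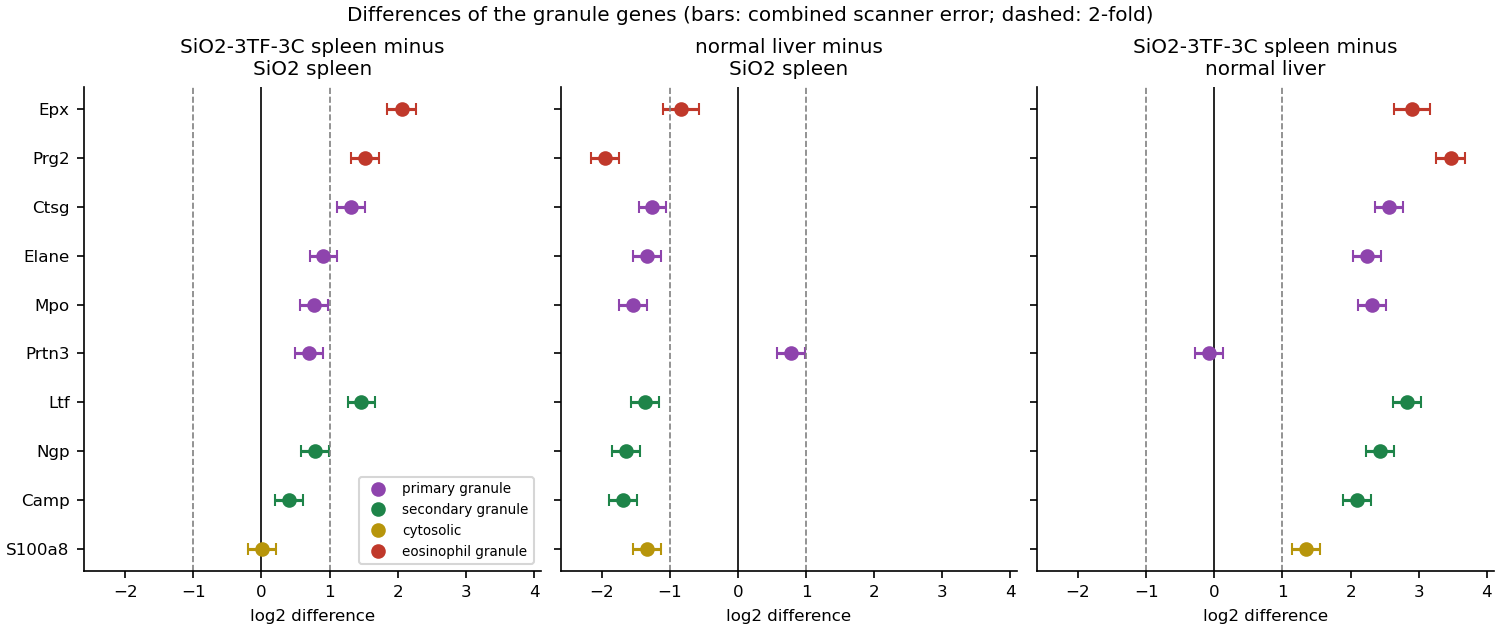
Log2 difference (horizontal axes) of each granule gene in the 3 comparisons, with bars for the combined scanner error and dashed lines at 2-fold. Epx, Prg2, Ctsg and Ltf lie beyond 2-fold between the spleens (left), 8 genes lie beyond 2-fold below the SiO2 spleen in normal liver (middle), and Prtn3 lies near 0 between the SiO2-3TF-3C spleen and liver (right).

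Across the 10 members, normal liver was at least 2-fold below the SiO2 spleen for 8, with a median log2 difference of -1.35, where 17.0% of all genes were at least 2-fold lower, 15.4% at least 2-fold higher, and the median of all genes was -0.14. The exceptions were Prtn3 and Epx. The SiO2-3TF-3C spleen was at least 2-fold above liver for 9 of 10, with a median of 2.37 against -0.03 over all genes, where 10.7% of all genes stood at least 2-fold higher and 15.9% at least 2-fold lower. Of all genes past 2-fold in that comparison 40.4% were on the higher side, against 61.0% with scaling to housekeeping genes, which left the members' count at 9. These comparisons share arrays with each other, so their counts are not independent. In descending order of level, 9 members ran from the SiO2-3TF-3C spleen over the SiO2 spleen to liver, with the spleens closer than their error for S100a8, and Prtn3 ran from liver over the SiO2-3TF-3C spleen, closer than their error, to the SiO2 spleen.

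Ctsg, Ltf and Prg2 exceeded the SiO2 spleen at least 2-fold with SiO2-3TF-3C and stood at least 2-fold below it in normal liver. Of the 16087 genes that passed background on all 3 arrays, 54 met both marks (0.336%). With any size of difference, 9 of 10 members exceeded the SiO2 spleen with SiO2-3TF-3C and stood below it in liver, as did 11.2% of all genes.

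**Figure D3:**
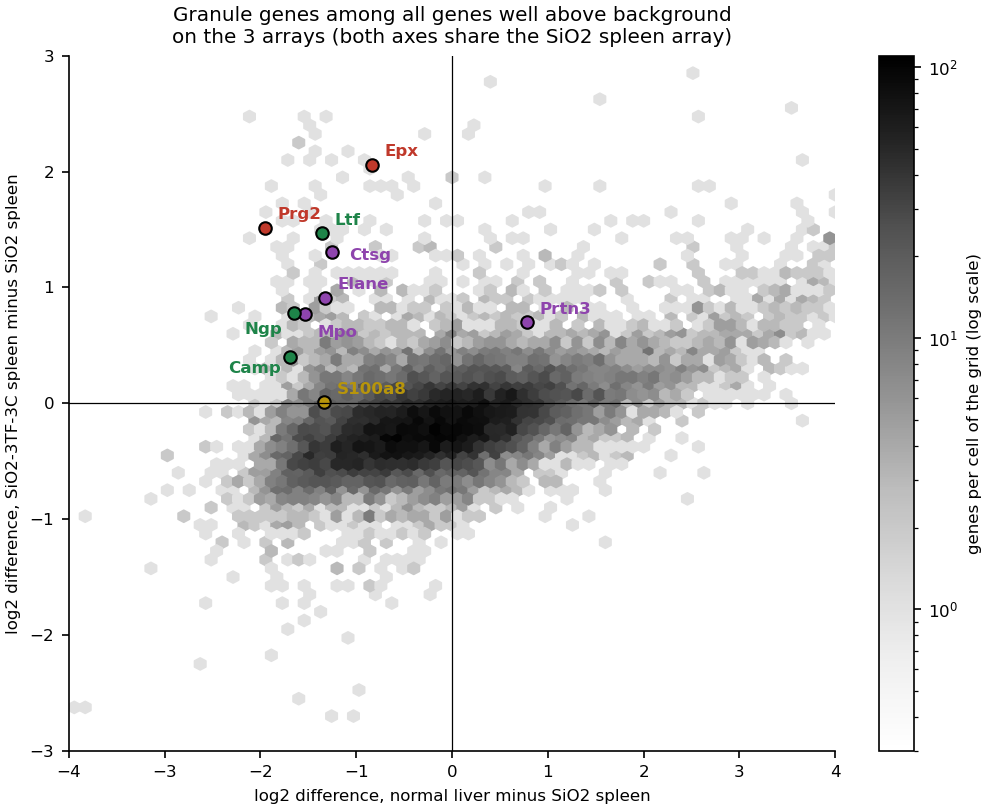
Each granule gene (coloured points) placed by its log2 difference between normal liver and the SiO2 spleen (horizontal axis) and between the SiO2-3TF-3C spleen and the SiO2 spleen (vertical axis), over a grid shaded by the number of genes among the 16087 well above background on all 3 arrays, of which 454 fall outside the range drawn. Both axes share the SiO2 spleen array, and 9 members lie left of 0, with Prtn3 on the right.

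Other genes listed with the same granules, not all of them particular to granules, had smaller median differences between the spleens. Of 7 further genes listed with the primary granules, 0 were at least 2-fold apart between the spleens. All 7 were lower, with a median log2 difference of -0.28. Among them the membrane protein Cd63 was at -0.50 ± 0.20, the protease inhibitor Serpinb1a at -0.46 ± 0.20 and Bpi, which binds bacterial lipopolysaccharide, at -0.39 ± 0.34. Cd63 is found in the lysosomes of many cells, and Bpi was the dimmest of the 7, at -5.57 in the SiO2-3TF-3C spleen and -5.18 in the SiO2 spleen. Of 10 further secondary and tertiary granule genes measured, 6 were higher and 4 lower by any amount (median 0.33). At least 2-fold higher were 2: Lcn2, a lipocalin that binds bacterial siderophores, at 1.27 ± 0.20, and the protease inhibitor Slpi at 1.19 ± 0.20. Cd177 (0.94 ± 0.25), Mmp8 (0.71 ± 0.20) and Mmp9 (0.55 ± 0.21) came next, and the lowest were Cybb (-0.54 ± 0.20) and Adam8 (-0.53 ± 0.20). Relative to the SiO2 spleen, liver stood lower for Slpi (-1.36 ± 0.20) and higher for Lcn2 (0.92 ± 0.20), and hepatocytes are known to make Lcn2.

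Genes of the mature neutrophil were level between the spleens. Of 9 surface genes measured 0 were at least 2-fold apart and the median was 0.21. Among them the formyl peptide receptor Fpr2 was at 0.58 ± 0.20 and the chemokine receptor Cxcr2 at -0.48 ± 0.21. Of 7 further neutrophil cytosolic genes 1 was at least 2-fold higher (median -0.05). This was Wfdc21 at 1.93 ± 0.20, which was also 21.2-fold higher in normal liver than in the SiO2 spleen. The Stfa genes in this list are near copies of each other, and the array may not separate them. Of 9 granulocyte transcription factors and progenitor genes, 1 was at least 2-fold higher (median 0.02), Ms4a3, a gene of granulocyte and monocyte progenitors, at 1.25 ± 0.20, with liver lower than the SiO2 spleen at -1.45 ± 0.21. Cebpe, the factor needed for secondary granule genes, was at 0.76 ± 0.20, and Spi1, which encodes PU.1, was the lowest of the 9 at -0.83 ± 0.21. Together 3 of 33 further neutrophil granule, cytosolic and surface genes reached 2-fold higher with SiO2-3TF-3C, set against 5.24% of all genes.

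Other eosinophil genes were nearer to 0 than Epx and Prg2. Of 10 measured, 0 were at least 2-fold apart between the spleens, with a median log2 difference of 0.14. Il5ra, a receptor chain for interleukin-5, was at -0.77 ± 0.20, and the eosinophil-associated ribonucleases Ear1 and Ear6 were at 0.53 ± 0.20 and 0.45 ± 0.20. The Ear genes are close paralogs that the array may not separate. The eotaxin receptor Ccr3 was at 0.00 and Siglecf at 0.06. Prg3, the gene next to Prg2 and a homologue of it, was at -0.19 ± 0.20 between the spleens and at -1.94 ± 0.22 between liver and the SiO2 spleen. In liver 8 of these 10 genes were at least 2-fold below the SiO2 spleen, as Prg2 was, against 17.0% of all genes.

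Mast cell and basophil genes had 0 of 10 at least 2-fold apart between the spleens (median 0.04). The basophil proteases Prss34 and Mcpt8 were at 0.63 ± 0.21 and 0.50 ± 0.21. The mast cell protease Cma1 was at -0.32 ± 0.35, less than its error. Its scaled log2 values were low, at -5.67 in the SiO2-3TF-3C spleen and -5.35 in the SiO2 spleen. Mcpt8 and Mcpt4 are the nearest protein-coding neighbours of Ctsg on one side. Ms4a2 was not well above background on any of the arrays. Of 10 growth factors and chemoattractants of granulocytes, Csf3, Csf2 and Il5 were not well above background on any array, and 0 of the other 7 were at least 2-fold apart (median 0.09). The neutrophil chemokines Cxcl1 and Cxcl2 were at 0.81 ± 0.21 and -0.94 ± 0.26. The growth factor Il3 was at -0.45 ± 0.29, and the eotaxins Ccl11 and Ccl24 were at 0.09 ± 0.21 and 0.20 ± 0.21.

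**Figure D4:**
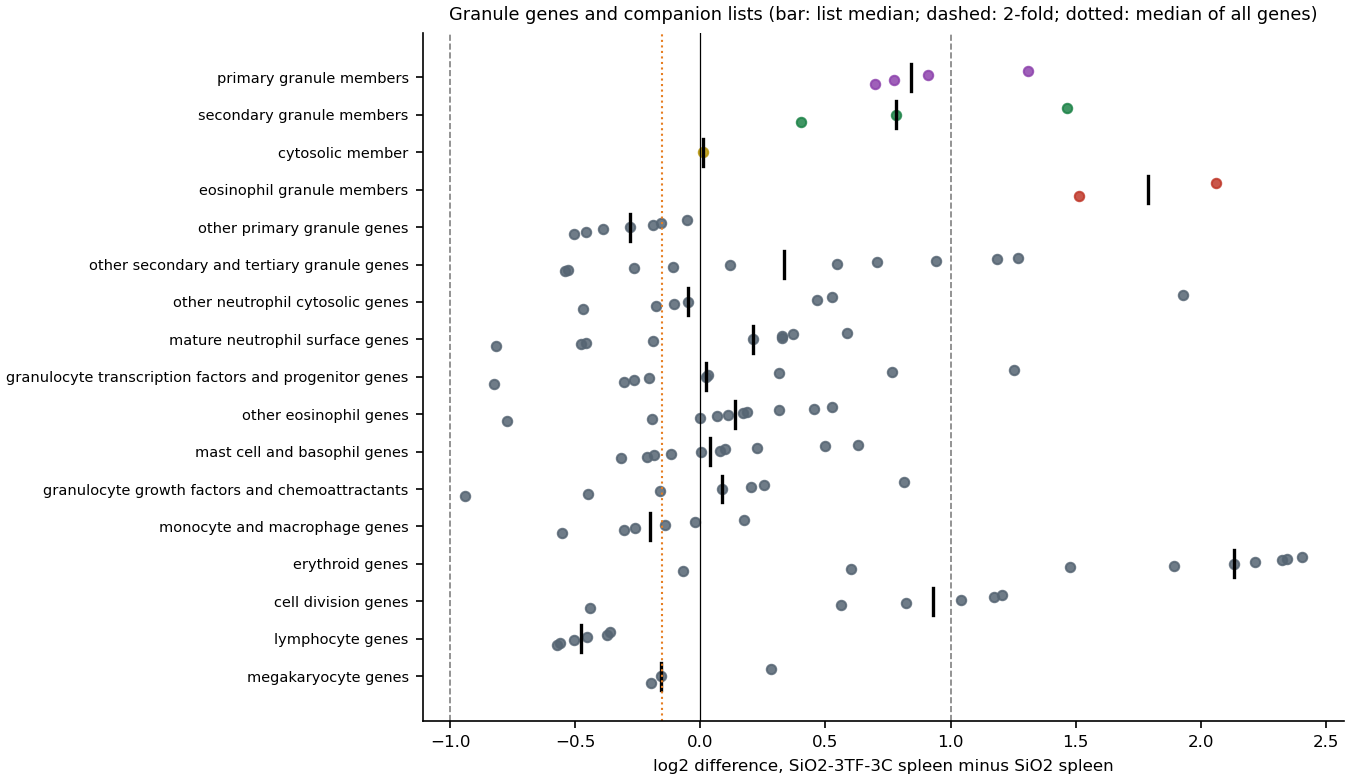
Log2 difference between the SiO2-3TF-3C spleen and the SiO2 spleen (horizontal axis) for each granule gene and each measured gene of the companion lists, 1 point per gene, with a bar at the list median, dashed lines at 2-fold and a dotted line at -0.15, the median of all genes. Other primary granule genes lie below 0, other eosinophil genes within 2-fold, and 7 of 9 erythroid genes above 2-fold.

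Markers of other cells moved between the spleens as well. Of 9 erythroid genes 7 reached 2-fold higher with SiO2-3TF-3C (median 2.13), and their summed level was 59.5 times the 75th percentile in the SiO2-3TF-3C spleen, 10.1 times in normal liver and 23.0 times in the SiO2 spleen. Of 6 cell division genes 3 were at least 2-fold higher (median 0.93), with summed levels of 27.1, 4.37 and 12.5 in the SiO2-3TF-3C spleen, normal liver and the SiO2 spleen. The 10 members summed to 116, 30.4 and 83.4 in that order. Monocyte and macrophage genes (median -0.20), lymphocyte genes (-0.48) and megakaryocyte genes (-0.16) had 0 of 6, 0 of 6 and 0 of 3 members 2-fold apart. All genes of these 5 lists with a probe were well above background on each array, and their part in the granule gene differences was not tested.

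Genes most like a class were sought by the distance, in log2 units, from the class median over the differences of the SiO2-3TF-3C spleen and of normal liver from the SiO2 spleen, among genes that passed background on all 3 arrays. For the primary granule genes the nearest were Gdf3 (0.03), Atp1b2 (0.04) and Slbp (0.06), and 43 of 16077 genes lay within 0.25. For the secondary granule genes they were Clspn (0.05), Kif15 (0.06) and Aspm (0.08), with 27 genes within 0.25. For the eosinophil granule genes they were Tac2 (0.03), Mboat2 (0.10) and the red cell membrane gene Slc4a1 (0.12), with only 5 genes within 0.25. With 3 arrays such a distance describes 2 numbers per gene.

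The chromosomal neighbours of the members had a median close to that of all genes between the spleens. Of 34 distinct protein-coding genes among the nearest 2 on each side of a member, 28 had a difference or a bound between the spleens. At least 2-fold higher were 0 and at least 2-fold lower were 2, both of them bounds. Over all genes, bounds included, the shares were 5.24% and 1.39%. Well above background in both spleens were 26 of the neighbours, and 0 of these were 2-fold apart. Their median log2 difference was -0.07, against -0.15 over all genes, and they ranged from -0.57 for Lrrc2, near Ltf, to 0.55 for Slc43a3, next to Prg2. Gzme, next to Ctsg, and S100a7a, next to S100a8, did not pass background in the SiO2-3TF-3C spleen and have only bounds, of -1.63 or lower and -1.49 or lower.

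**Figure D5:**
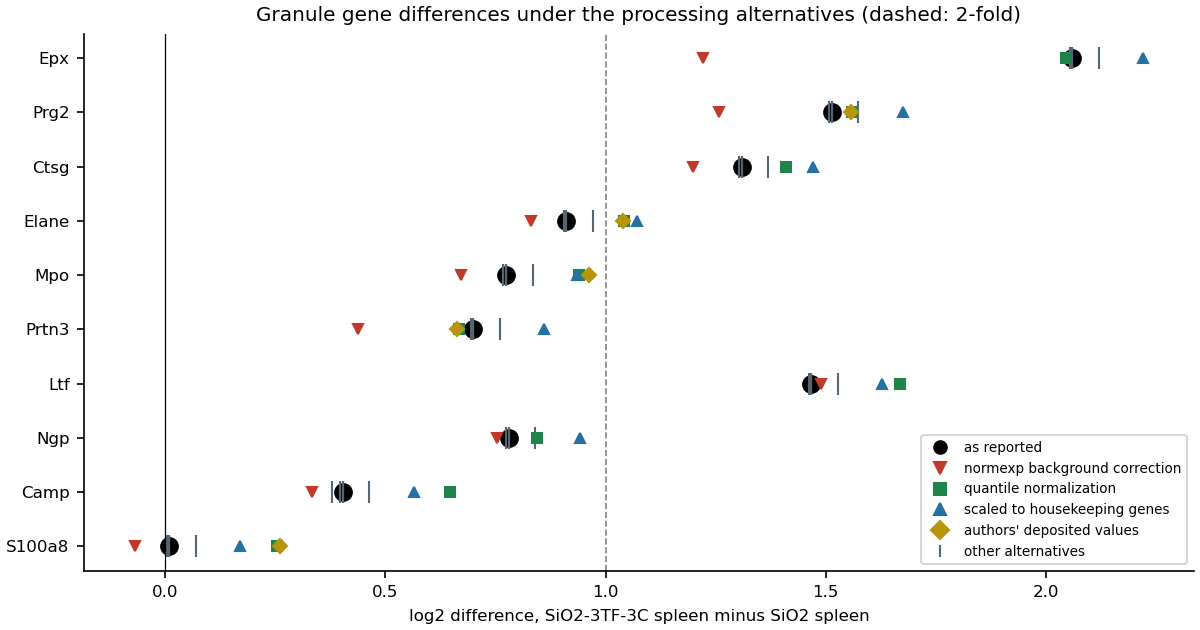
Log2 difference between the SiO2-3TF-3C spleen and the SiO2 spleen (horizontal axis) of each granule gene as reported (black) and under the processing alternatives (coloured symbols and ticks), with a dashed line at 2-fold. Epx moves most, to 1.22 with normexp background correction, and the only member to cross 2-fold is Elane, between 0.83 and 1.07.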

How the data were processed

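Per the file headers, the authors extracted the deposited fluorescence intensities with Feature Extraction 11.0.1.1 (array design 026655, build mm9), background-subtracted and detrended but not scaled between arrays. For the same step the notes of the submitters name version 9.1. Per the labels, RNA was isolated with a blood kit that lyses red and white cells differentially, and globin messages were removed. All 3 arrays lay on 1 slide and were scanned together. The authors' deposited series table holds log2 values (r from 0.993 to 0.996 with each column's own log2 intensity), with a median of 5.91 in each column, not centred on 0. The sources used here do not give its method.

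Control spots and outlier-flagged spots (283, 469 and 182 for the SiO2-3TF-3C spleen, normal liver and the SiO2 spleen) were left out. Log2 processed signals were averaged per probe and scaled by subtracting the array's 75th percentile over the 39112 probes with a usable spot on every array, of which 27038 (69.1%) were named through RefSeq accessions. A gene stands by its brightest probe. A gene dim on 1 side of a comparison was given a bound. Computations used Python 3.11.15, pandas 2.3.3 and limma 3.58.1. The steps were tested on simulated data. Without replicates no p-value is given, and precision is limited by having 3 arrays.

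The members and the 15 companion lists were chosen with earlier results of these data known. Companion genes are named where at least 2-fold apart between the spleens, otherwise the 3 largest differences of a list, of which 1 surface gene is not reported here. Ccr3, Siglecf, Prg3, S100a9, Cebpe, Spi1, Il3, Ccl11, Ccl24, Mcpt4, Lpo, Mks1, Gzme, S100a7a, Lrrc2, Slc43a3 and the genes not above background were named after their values were seen, and the promoter motifs and the neighbours were added to the plan. Cd177, Mmp8, Mmp9, Cybb and Adam8 were also named after their values were seen. Mean spot signals are not among the columns used, so normexp (offset 50) ran on median signals. For 8 listed genes no probe was matched: Olfm4, BC100530, Csf3r, Ly6g, Tpsab1, Ly6c2, Cd68 and Polr2a.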

Additional observations from a re-analysis of the deposited data

How the results depend on the processing

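The 10 alternatives were background correction, 4 scalings, the authors' deposited values, the mean over probes, 2 filters and keeping flagged spots. Over the results that answer a comparison, 54 recomputed values stayed within the technical error or within 1.5 times the count, and 5 moved. In the authors' deposited table, which gave values for 5 members, 2 reached 2-fold higher for the SiO2-3TF-3C against the SiO2 spleen, 4 reached 2-fold lower for liver against the SiO2 spleen, and 4 reached 2-fold higher for the SiO2-3TF-3C spleen against liver. Of the same 5 members, 1, 4 and 4 did so as reported, the added one between the spleens being Elane at 1.04 in that table. The median of the eosinophil granule genes between the spleens, 1.79, was 1.56 there, resting on Prg2, and 1.24 with normexp background correction, whose offset raises dim signals. Of the other recomputed values 304 stayed within the technical error and 39 moved, and 0 values past 2-fold changed sign. Values under 2-fold that changed sign were S100a8 between the spleens, Epx between liver and the SiO2 spleen, both with normexp, and Prtn3 between the SiO2-3TF-3C spleen and liver with housekeeping scaling. Over all genes, those at least 2-fold lower with SiO2-3TF-3C between the spleens numbered 245, against 40 with normexp, 555 with no filter, 136 with housekeeping scaling, 161 over genes detected on all arrays and 156 in the authors' deposited table, and those higher numbered 924, against 592 with normexp. For liver against the SiO2 spleen 2946 were lower, against 1633 with normexp, and 2670 higher, against 1774 in the authors' deposited table. For the SiO2-3TF-3C spleen against liver 1848 were higher, against 861 with normexp and 3181 with housekeeping scaling, and 2729 lower, against 1702 in the authors' deposited table. Housekeeping scaling moved the median of all genes between the spleens to 0.01 on the log2 scale, against -0.15 as reported, and the members' median to 1.01, against 0.85. No paired analysis was possible because each group has 1 array. Epx, the dimmest member, is the one whose size the background limits most.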
